A study of Mus musculus with 4 samples.

Results

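The genes described here drive the passage of a cell from G1 into S phase. They are the D cyclin genes *Ccnd2* and *Ccnd3*, the genes of their partner kinases *Cdk4* and *Cdk6*, the E cyclin genes *Ccne1* and *Ccne2*, the partner kinase gene *Cdk2*, the E2F factor genes *E2f1* and *E2f2*, and the pocket protein gene *Rb1*. These 10 genes were listed by name, and all 10 are among the 17104 genes of the deposited expression table. RNA was measured in bone marrow YFP+, c-kit+ leukemia stem cells (LSCs) from mice with MLL-AF9 acute myeloid leukemia (AML), sorted at week 6 of the secondary transplantation, with 2 CD37 fl/fl and 2 CD37-/- replicates. The question was how loss of CD37, a tetraspanin of the leukocyte surface, affects the transcriptome of these cells.

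Both groups share most of their history. Lineage-negative marrow cells of mice with a floxed *Cd37* and a tamoxifen-inducible Cre (Rosa26-CreERT2) received a retrovirus carrying MLL-AF9 and YFP, and were transplanted into sublethally irradiated C57 mice. Tamoxifen given to the recipients made the CD37-/- group and corn oil the CD37 fl/fl group, so tamoxifen and the deletion cannot be told apart, and both groups carry the floxed alleles, Cre, MLL-AF9 and YFP. The labels give male C57 mice and no age, the study's methods describe the purchased C57 mice as a few weeks old, and nothing says whether cells of several mice were pooled. The p-values therefore measure the spread between these libraries only, which may be technical.

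In a dividing cell, D cyclins with Cdk4 or Cdk6 begin to phosphorylate the Rb protein, which holds E2F factors in check. Freed E2F switches on the genes of S phase and of the E cyclins, and cyclin E with Cdk2 phosphorylates Rb further. Hematopoietic cells use these D cyclins in different proportions, and MLL-rearranged leukemia is known for its dependence on Cdk6.

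Values were deposited as FPKM, fragments per kilobase of gene scaled to the depth of the library, where the kilobases are those of the whole genomic span with introns. Of the values in each library, 98.9% came out as whole reads under this reading, within 0.05 of a read, a tolerance that 10% of values meet by chance. The implied totals were 15327357 and 17327702 reads for CD37 fl/fl replicates 1 and 2, and 17740458 and 22627494 for those of CD37-/-. *Cd37*, the deleted gene, had an FPKM of 56.6 and 46.8 in CD37 fl/fl and of 23.2 and 22.9 in CD37-/- LSCs. The log2 fold change was -1.15 with an adjusted p of 0.13 (limma, Benjamini-Hochberg adjusted). Per the study's supplement, the loxP sites flank only some of the exons, while the FPKM covers the whole gene. The remaining FPKM is therefore no measure of the share of cells or alleles that kept the gene. Of the 8 AML LSC markers in the table, *Hoxa9* (38.8 to 47.2 FPKM) and *Elane* (1750 to 1884) were high in all 4 libraries, *Kit* had 213 to 804 reads and *Cd34* had 5 to 16. Of the 7 markers of that list tested below, 3 were higher in CD37-/- LSCs without overlap and 1 was lower, against 42.2% and 18.6% of all tested genes. The lower one was *Mpo*, at 80.3 and 51.6 FPKM in CD37 fl/fl against 34.4 and 20.8 in CD37-/- LSCs. *Kit* had 0.17 and 0.325 against 0.327 and 0.434. *Ptprc* had 0.765 and 0.841 against 1.78 and 2.93, and *Meis1* had 0.512 and 0.573 against 0.884 and 0.851. Libraries differed in markers of other cells. The summed FPKM of the 9 erythroid markers in the table was 61 and 5.17 in CD37 fl/fl against 577 and 144 in CD37-/- libraries, and that of the 7 mature neutrophil markers was 1908 and 273 against 3460 and 2501. The 10 macrophage and dendritic cell markers summed to 223 and 29 against 15.9 and 44.8, of which *Cd74* alone gave 171 and 20.6 against 7.62 and 25.7. Within that list *Vcam1* was higher without overlap (0.575 and 0.146 against 2.88 and 1.3). *Cd209a* was lower without overlap (0.946 and 0.238 against 0.0202 and 0.174). The 5 B cell markers summed to between 6.64 and 15.4, almost all of it *Cd79b*, with *Pax5* at or below 0.00516. Of the T and NK cell markers *Nkg7* alone was above 1 FPKM, with 94.6 and 118 in CD37 fl/fl against 40.1 and 41.3 in CD37-/- LSCs (log2 fold change -1.37, unadjusted p = 0.002 by limma), and the stroma and endothelium markers summed to at most 1.67. The part that these markers play in the values below was not tested, and in such bulk samples fewer cells of a type and less RNA per cell cannot be told apart.

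Genes with long introns have a low FPKM for their number of reads, *Rb1* most of all with a span 23.63 times its exon length and *Cdk6* with 13.55 times. Levels of different genes were therefore compared in reads per kilobase of exon, scaled to the depth of the library. On this scale *Cdk4* was highest with a mean of 83.6 over the 4 libraries, followed by *Cdk6* (54.2), *Ccnd3* (33.6), *E2f1* (28.3), *E2f2* (20.7), *Cdk2* (14.4) and *Ccne1* (14.3), and then by *Ccnd2* (1.75), *Ccne2* (1.13) and *Rb1* (0.892). Only the steps from *Cdk4* to *Cdk6* and from *Ccne1* to *Ccnd2* separated neighbours whose ranges over the libraries did not overlap. On this scale *Ccnd3* was the more abundant of both D cyclin genes and *Ccne1* of both E cyclin genes in every library. Whether the counting took in introns is not given in the sources used here, and the order of the D cyclin genes depends on the length used. By FPKM, over the whole span, *Ccnd2* (1.72) was above *Ccnd3* (1.48) in CD37 fl/fl replicate 2.

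**Figure D1:**
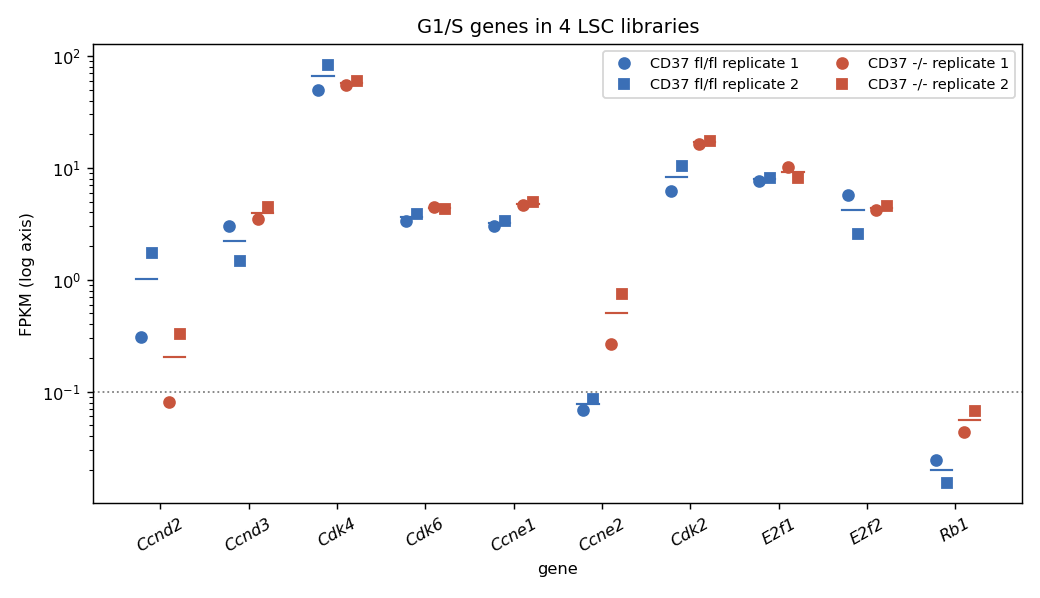
FPKM of the 10 genes on a log axis, with 1 point per library (blue, CD37 fl/fl; red, CD37-/-; circles, replicate 1; squares, replicate 2) and a bar at each group mean. Both CD37-/- points lie above both CD37 fl/fl points for 6 of the 10 genes, against 42.2% of all tested genes. These are *Ccnd3*, *Cdk6*, *Ccne1*, *Ccne2*, *Cdk2* and *Rb1*. The groups overlap for *Ccnd2*, *Cdk4*, *E2f1* and *E2f2*. All *Rb1* points lie under the dotted line at 0.1 FPKM, the lowest mean tested.

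Differences were tested with limma on log2(FPKM + 0.1) for the 11774 genes whose FPKM averaged 0.1 or more, a scale that understates the change of low genes. No gene passed an adjusted p under 0.05 (0 of 11774, or 0%, with a smallest adjusted p of 0.107 by limma, Benjamini-Hochberg adjusted, and 0 also with limma-voom on the recovered reads). The 9 members tested were among them, and *Rb1* was not tested there. At an unadjusted p under 0.05, 1946 genes were higher in CD37-/- LSCs (16.5%) and 660 were lower (5.61%). Among the members 3 of 9 were higher at that level, *Ccne2*, *Cdk2* and *Ccne1*, and 0 were lower. In 5 of 9 members both CD37-/- libraries lay above both CD37 fl/fl libraries, against 42.2% of all tested genes, and in 0 of 9 they lay below, against 18.6%. The median log2 fold change was 0.27 over the 9 members and 0.23 over all tested genes. Scaling between the libraries matters at this size. After quantile normalization, which brings the median of all tested genes to -0.03, *Ccne1*, *Ccne2* and *Cdk2* alone remained above without overlap (3 of 9, against 26.1% of all genes), and *Ccnd2* was below (1 of 9, against 30.7%).

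**Figure D2:**
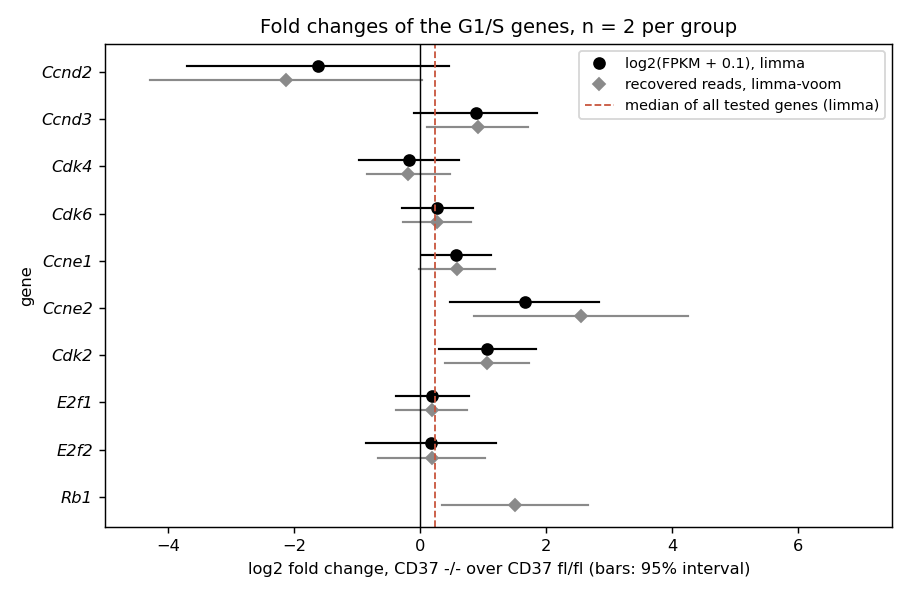
Log2 fold change of CD37-/- over CD37 fl/fl for the 10 genes, with 95% intervals (bars), from limma on log2(FPKM + 0.1) (black circles) and from limma-voom on recovered reads (grey diamonds, *Rb1* only there). The black intervals of *Ccne1*, *Ccne2* and *Cdk2* lie above 0, the others cross it, and the dashed line marks the median of all tested genes at 0.23.

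In the limma fit on FPKM, the E cyclin arm held the 3 members past the unadjusted threshold. This set depended on the fit. In limma-voom on recovered reads *Cdk2* and *Ccne2* stayed past it and *Ccne1* did not (unadjusted p = 0.0574). There *Ccnd3* (unadjusted p = 0.0322 by limma-voom) and *Rb1* (0.0175) were past it too. *Cdk2*, the kinase that E cyclins activate, had an FPKM of 6.25 and 10.4 in CD37 fl/fl LSCs and of 16.5 and 17.4 in CD37-/- LSCs, from 680 to 2790 reads. Both CD37-/- libraries were high and close together, and the lowest of them was 1.59 times the highest CD37 fl/fl library. The means were 8.32 ± 2.92 and 16.9 ± 0.615 (SD, n = 2 each), a log2 fold change of 1.06 ± 0.30 (standard error; adjusted p = 0.171 by limma, Benjamini-Hochberg adjusted).

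*Ccne1*, which encodes cyclin E1, had an FPKM of 3.03 and 3.35 in CD37 fl/fl and of 4.67 and 4.93 in CD37-/- LSCs. Replicates differed little and the groups did not overlap, with means of 3.19 ± 0.227 and 4.8 ± 0.184 (SD, n = 2 each). The log2 scale gave 0.57 (standard error 0.21, adjusted p = 0.215 by limma, Benjamini-Hochberg adjusted), and 0.36 after quantile normalization.

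*Ccne2*, which encodes cyclin E2, was much scarcer, with an FPKM of 0.068 and 0.0859 in CD37 fl/fl and of 0.269 and 0.75 in CD37-/- LSCs. The underlying reads were 14 and 20 against 64 and 228, with exact Poisson intervals (95%, counting error only) of 7.65 to 23.5 and 12.2 to 30.9 for CD37 fl/fl, against 49.3 to 81.7 and 199 to 260 for CD37-/-. These intervals, in reads not scaled for depth, do not overlap between the groups, while the CD37-/- libraries themselves differed by 2.79 times. On log2(FPKM + 0.1) the fold change was 1.66 (standard error 0.46, adjusted p = 0.17), and limma-voom gave 2.56 (standard error 0.74, adjusted p = 0.0981), both Benjamini-Hochberg adjusted. It was 0.47 with a pseudocount of 1 and 1.06 without CD37-/- replicate 2. *Ints8* lies on the opposite strand and shares 609 exon bases with *Ccne2*. It had 227 and 393 reads in CD37 fl/fl against 470 and 913 in CD37-/- LSCs, and whether the counting used strand is not given in the sources used here, so reads of both genes in the shared bases cannot be told apart.

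The upstream windows of the members were searched for letters typical of E2F sites, since *Ccne1* and *E2f1* are textbook E2F targets. RefSeq (GRCm38.p6) gave 9 windows of 250 bases before a start for 7 of the 10 members, all but *Ccnd2*, *Ccne2* and *Rb1*. *Ccnd3* and *E2f2* had 2 windows each. The windows of *E2f1* and *Cdk6*, and 1 of the 2 each of *Ccnd3* and *E2f2*, lie inside the annotated span of the gene. These windows do not cover the bases before the first start, so the lack of a match there does not describe those bases. The letters TTTCCCGC, TTTGGCGC, TTTGCCGC and TTTCGCGC were looked for on both strands. Of the 9 windows, 1 held a match, against 611 of all 32851 windows (1.86%). It is the window of *Cdk2*. *Ccne1* and *Ccne2* were past the unadjusted threshold in the limma fit on FPKM as *Cdk2* was, but the *Ccne1* window held no match and *Ccne2* had no window. The *Cdk2* window is shown here with the match in capitals (TTTCCCGC on the other strand, beginning at position -140 from the start). Beside it is 1 of the 2 windows of *Ccnd3*, neither of which holds a match. Both printed sequences are written 5′ to 3′ on the strand of the gene, and a match describes letters only.
Cdk2, chr10:128705052-128705301, minus strand: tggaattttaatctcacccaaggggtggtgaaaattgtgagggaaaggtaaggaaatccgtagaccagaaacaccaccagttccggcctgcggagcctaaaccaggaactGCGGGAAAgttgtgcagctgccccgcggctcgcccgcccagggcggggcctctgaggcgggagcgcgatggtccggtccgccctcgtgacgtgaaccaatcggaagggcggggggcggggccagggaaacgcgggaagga
Ccnd3, chr17:47504801-47505050, plus strand: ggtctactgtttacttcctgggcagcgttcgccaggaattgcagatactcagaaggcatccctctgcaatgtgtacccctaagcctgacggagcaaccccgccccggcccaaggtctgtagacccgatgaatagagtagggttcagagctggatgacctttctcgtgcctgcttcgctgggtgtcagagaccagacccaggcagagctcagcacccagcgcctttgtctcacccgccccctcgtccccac

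The D cyclin genes pointed in opposite directions, and neither passed the test. *Ccnd2* (cyclin D2, chr6:127125162-127152193, minus strand, GRCm38) had 127 and 805 reads in CD37 fl/fl against 39 and 202 in CD37-/- LSCs, an FPKM of 0.307 and 1.72 against 0.0813 and 0.33. Replicates of each group differed by 5.61 and 4.06 times, replicate 2 of CD37 fl/fl stood highest, and its replicate 1 lay just under the higher CD37-/- library, so the groups overlapped. The log2 fold change of -1.62 had a 95% interval from -3.70 to 0.45 and an adjusted p of 0.293 (limma, Benjamini-Hochberg adjusted). Without CD37 fl/fl replicate 2 it was -0.54, without CD37 fl/fl replicate 1 -2.70, without CD37-/- replicate 1 -1 and without CD37-/- replicate 2 -2.25. In limma-voom with the replicate block, an alternative chosen after seeing the data, it was -2.25 with an adjusted p of 0.04, where the adjusted p over the 16 alternatives ranged from 0.04 to 0.646 (Benjamini-Hochberg adjustment).

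*Ccnd3* (cyclin D3) had the opposite order, with an FPKM of 3.00 and 1.48 in CD37 fl/fl and of 3.52 and 4.47 in CD37-/- LSCs. Replicate 2 of CD37 fl/fl, the highest library for *Ccnd2*, was the lowest for *Ccnd3*. The groups did not overlap, but the lowest CD37-/- library was only 1.17 times the highest CD37 fl/fl library. Means of 2.24 ± 1.07 and 3.99 ± 0.672 (SD, n = 2 each) gave a log2 fold change of 0.88 (standard error 0.38, adjusted p = 0.251 by limma, Benjamini-Hochberg adjusted). It was 0.39 without CD37 fl/fl replicate 2, and after quantile normalization, where it was 0.63, the groups overlapped.

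A share within 1 library does not depend on the scaling between libraries. Of the reads per exon kilobase of both D cyclin genes, *Ccnd2* made up 2.65% and 23.6% in CD37 fl/fl against 0.612% and 1.93% in CD37-/- LSCs. Both CD37-/- shares were lower than both CD37 fl/fl shares, yet 1 CD37 fl/fl library sets most of the difference of -11.9 percentage points, which was -1.38 without it. *Ccne2* made up 2.35% and 2.67% of both E cyclin genes in CD37 fl/fl against 5.80% and 14% in CD37-/- LSCs. Here the CD37 fl/fl libraries were nearly equal and the spread lay within CD37-/-, and the difference of 7.4 percentage points was 3.3 without CD37-/- replicate 2. With 2 libraries against 2, a two-sided exact permutation test cannot go below 0.333, the value that both shares had.

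**Figure D3:**
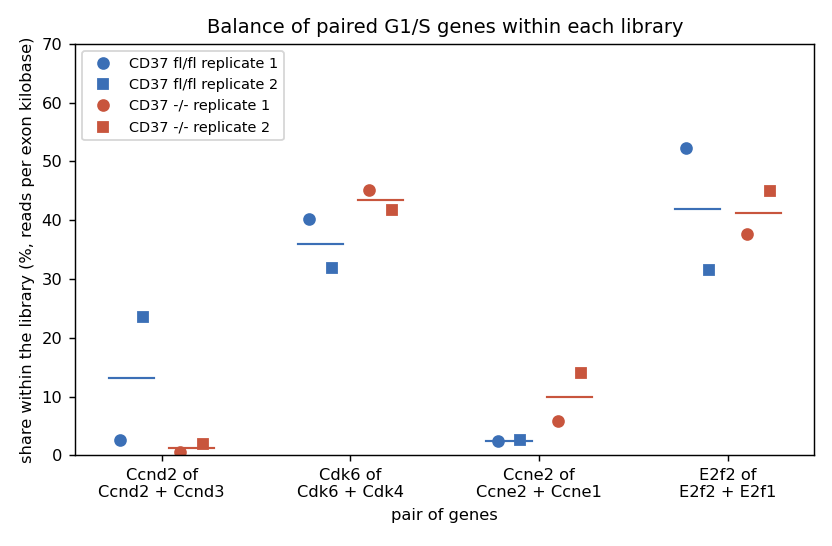
Share of the gene named first in the summed reads per exon kilobase of each pair, in percent, with 1 point per library and a bar at each group mean. The *Ccnd2* share is highest in CD37 fl/fl replicate 2 at 23.6%, the *Ccne2* share is highest in CD37-/- replicate 2 at 14%, and the *E2f2* shares of both groups overlap.

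The partner kinases of the D cyclins, which add the first phosphates to Rb, differed little. *Cdk4* had an FPKM of 50.1 and 83.3 in CD37 fl/fl and of 54.7 and 59.4 in CD37-/- LSCs. The CD37-/- libraries lay between the CD37 fl/fl libraries, and the log2 fold change of -0.18 (95% interval -0.98 to 0.62, adjusted p = 0.746 by limma, Benjamini-Hochberg adjusted) turned to 0.20 after rescaling to equal sums, to 0.04 after quantile normalization and to 0.18 without CD37 fl/fl replicate 2. *Tspan31*, on the opposite strand, shares 641 exon bases with *Cdk4* and had 162 and 372 reads against 445 and 712, far fewer than the 3372 to 6334 reads of *Cdk4*.

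*Cdk6* had an FPKM of 3.36 and 3.88 in CD37 fl/fl and of 4.50 and 4.26 in CD37-/- LSCs. All CD37-/- values were higher, but by so little that the groups overlapped after quantile normalization, where the log2 fold change of 0.27 (95% interval -0.29 to 0.83, adjusted p = 0.476 by limma, Benjamini-Hochberg adjusted) became 0.05. Its 9766 to 18257 reads make it the most deeply sampled member. Of the reads per exon kilobase of both kinase genes, *Cdk6* made up 40.2% and 31.8% in CD37 fl/fl against 45.2% and 41.8% in CD37-/- LSCs (two-sided exact permutation p = 0.333, n = 2 each), so that *Cdk4* stayed ahead in every library. The difference of 7.51 percentage points was 3.31 without CD37 fl/fl replicate 2 and 11.7 without CD37 fl/fl replicate 1.

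The E2F genes did not separate the groups. *E2f1* had an FPKM of 7.64 and 8.19 in CD37 fl/fl and of 10.1 and 8.13 in CD37-/- LSCs. The other libraries nearly coincide and CD37-/- replicate 1 stands above them, for a log2 fold change of 0.19 (95% interval -0.39 to 0.77, adjusted p = 0.626 by limma, Benjamini-Hochberg adjusted). *E2f2*, a second activating E2F, had 5.75 and 2.58 against 4.17 and 4.56. Here the CD37 fl/fl libraries were the highest and the lowest, and the log2 fold change of 0.17 (95% interval -0.87 to 1.21, adjusted p = 0.819 by limma, Benjamini-Hochberg adjusted) was 0.74 without CD37 fl/fl replicate 1 and -0.39 without CD37 fl/fl replicate 2. The *E2f2* share of both E2F genes was 52.3% and 31.5% in CD37 fl/fl against 37.6% and 45% in CD37-/- LSCs, and it differed by -0.575 percentage points between the group means (two-sided exact permutation p = 1, n = 2 each). On the linear scale these intervals run from 0.765 to 1.7 times for *E2f1* and from 0.547 to 2.32 times for *E2f2*.

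*Rb1*, the gene of the protein on which these kinases act, had 53 and 38 reads in CD37 fl/fl against 111 and 216 in CD37-/- LSCs, over a span of 142150 bases. The FPKM of 0.0243 and 0.0154 against 0.044 and 0.0672 was under the minimum of the test. Both CD37-/- libraries were higher, and the Poisson interval of the lower one, 91.3 to 134 reads, lies above those of both CD37 fl/fl libraries before scaling for depth, 39.7 to 69.3 and 26.9 to 52.2. When all genes above 0 were tested, the log2 fold change was 0.37 on log2(FPKM + 0.1), a pseudocount that exceeds every value of the gene, and it was 1.50 (standard error 0.51) in limma-voom. The adjusted p was 0.254 and 0.125 (limma, Benjamini-Hochberg adjusted). *Rcbtb2*, on the opposite strand, shares 488 exon bases with *Rb1* and had 208 and 190 reads against 306 and 637, higher in the same libraries.

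The relatives of *Rb1* and the E2F factors were listed as a group of 10 genes, 9 of which were tested. Of these, 4 were higher at an unadjusted p under 0.05 and 0 were lower, against 16.5% and 5.61% of all tested genes. The median log2 fold change was 0.61, and 0.43 after quantile normalization, where all tested genes had -0.03, and 1.01 without CD37 fl/fl replicate 2. *E2f8*, an atypical E2F that represses E2F targets, had an FPKM of 1.85 and 2.27 in CD37 fl/fl and of 5.80 and 7.88 in CD37-/- LSCs, a log2 fold change of 1.67 (adjusted p = 0.109 by limma, Benjamini-Hochberg adjusted). *E2f7*, the other atypical repressor, had 0.0809 and 0.0523 against 0.238 and 0.315. *Rbl2*, which encodes the pocket protein p130, had 0.0243 and 0.0225 against 0.106 and 0.28, from 20 and 21 against 101 and 341 reads. *Tfdp1*, a dimerization partner of E2F, had 3.32 and 4.1 against 6.00 and 9.13. In these 4 genes every CD37-/- library was above every CD37 fl/fl library, which their unadjusted p under 0.05 nearly fixes with 2 libraries against 2. Over the whole list, 7 of 9 tested genes were higher without overlap and 0 were lower, against 42.2% and 18.6% of all tested genes. *Rbl1* (log2 fold change 0.58), *E2f3* (0.30) and *E2f4* (0.46) were not past the unadjusted threshold.

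The CDK inhibitors, whose proteins bind CDKs alone or together with a cyclin and hold them inactive, numbered 7, all of them tested. Of these, 3 were higher at an unadjusted p under 0.05 and 0 were lower, against 16.5% and 5.61% of all tested genes. *Cdkn2c*, an inhibitor of Cdk4 and Cdk6, had an FPKM of 6.15 and 5.11 in CD37 fl/fl and of 18.9 and 31.3 in CD37-/- LSCs (log2 fold change 2.10, adjusted p = 0.109 by limma, Benjamini-Hochberg adjusted). *Cdkn1b*, which encodes p27, an inhibitor of cyclin E with Cdk2, had a log2 fold change of 1.84 (adjusted p = 0.114, limma, Benjamini-Hochberg adjusted). *Cdkn1a* had 11.8 and 5.57 against 7.31 and 10.8, so its groups overlapped, and *Cdkn2d*, the most abundant by FPKM, had 42.9 and 28.3 against 44.4 and 47.6. The median log2 fold change of the list was 0.54 with and without quantile normalization, and ranged from 0.37 to 0.71 with a library left out.

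Other cyclins and kinases gave a mixed picture, with 2 of 9 tested genes higher at an unadjusted p under 0.05 and 0 lower, against 16.5% and 5.61% of all tested genes. Their median of 0.10 turned to -0.24 after quantile normalization and ranged from 0 to 0.36 with a library left out. The higher genes were *Ccna2* (cyclin A2), with 8.86 and 12 against 20.1 and 20.3 FPKM, and *Cdk1*, with 5.94 and 9.01 against 11.8 and 12.6. *Ccnd1*, the third D cyclin gene, had 14 and 326 reads in CD37 fl/fl against 29 and 71 in CD37-/- LSCs, so that replicate 2 of CD37 fl/fl stood out as it did for *Ccnd2*. *Cdc25a*, a phosphatase that activates Cdk2, had a log2 fold change of 0.33 and *Cdk7*, of the kinase complex that activates CDKs, 0.10. Of the 7 tested genes for turnover of G1/S proteins and upstream factors, 0 were past the unadjusted threshold, and the median of 0.12 turned to -0.14 after quantile normalization. *Myc* had 8.69 and 19.8 against 20.2 and 32.3 FPKM, while *Cks1b* (log2 fold change -0.34) and *Skp2* (0.48), which together mark p27 for degradation, differed in sign.

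Among the genes of S-phase entry that E2F is known to switch on, 7 of 26 tested were higher at an unadjusted p under 0.05 and 0 were lower, against 16.5% and 5.61% of all tested genes. The median log2 fold change was 0.30, and 0.24 after quantile normalization, 0.11 without CD37 fl/fl replicate 1 and 0.47 without CD37 fl/fl replicate 2. *Mcm2* of the replicative helicase had an FPKM of 4.12 and 7.36 in CD37 fl/fl and of 11.1 and 16.1 in CD37-/- LSCs. *Pcna*, the sliding clamp, had 35.8 and 51.3 against 80 and 86.6, and *Cdc6*, a licensing factor, had 1.44 and 2.86 against 4.07 and 4.93. *Rrm2*, a subunit of ribonucleotide reductase, had 18.9 and 26.5 against 37.3 and 43. All 4 had an unadjusted p under 0.05, which with 2 libraries against 2 nearly fixes that the groups do not overlap, and none of them passed the adjusted p. Over the whole list, 14 of 26 tested genes were higher without overlap and 2 were lower, against 42.2% and 18.6% of all tested genes. Thymidylate synthase *Tyms* (log2 fold change -0.02) and the licensing factor *Cdt1* (0.20) were not past the unadjusted threshold. Of the 18 tested G2/M genes, 7 were higher at an unadjusted p under 0.05 and 0 were lower, with a median of 0.66 that was 0.50 after quantile normalization and 0.33 without CD37 fl/fl replicate 1. *Ccnb1*, which encodes the mitotic cyclin B1, had 9.88 and 13.4 against 15.2 and 15.3 FPKM (log2 fold change 0.41). *Top2a* had 11.6 and 13.6 against 19.7 and 23.5 FPKM, whereas *Mki67*, a general mark of proliferation, had 26.9 and 24.2 against 27.4 and 27. The list of brakes and quiescence genes had 3 of 9 tested genes higher and 0 lower at that level and a median of 0.48 (0.10 after quantile normalization), *Ccng2* among them with 0.792 and 0.778 against 2.66 and 3.01 FPKM. *Btg1* (log2 fold change -0.12) and *Foxo3* (-0.42) were below 0. Over all lists, 26 of 85 tested genes were higher at an unadjusted p under 0.05 and 0 were lower, against 16.5% and 5.61% of all tested genes.

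**Figure D4:**
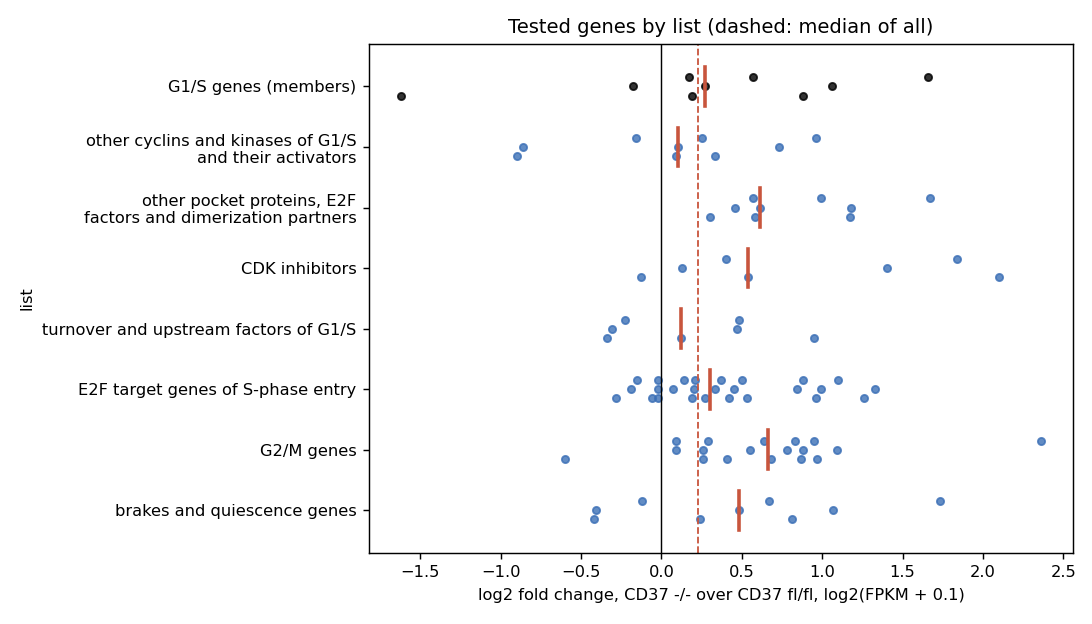
Log2 fold change of CD37-/- over CD37 fl/fl, on log2(FPKM + 0.1), for each tested gene of the 7 lists and of the 9 tested members (points), with the median of each list (red bar) and of all tested genes (dashed line at 0.23). The medians run from 0.10 for other cyclins and kinases to 0.66 for G2/M genes, and the lowest member is *Ccnd2* at -1.62.

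The genes whose pattern over the 4 libraries lay nearest to that of *Ccnd2* were sought among 6761 genes whose FPKM averaged 1 or more, by the Euclidean distance of log2(FPKM + 0.1) values centred on each gene. They were *Gm5864* (distance 0.61), ENSMUSG00000119673 (0.64), *Gm5424* (0.75), *Bhlha15* (0.80) and *Rbakdn* (0.80). *Gm5864* and *Gm5424* are annotated as processed pseudogenes and *Rbakdn* as a lincRNA. These genes were chosen for their nearness to *Ccnd2*, so an order of libraries shared with it is part of the choice and not a separate result. In all 5 of them CD37 fl/fl replicate 2 was the highest library and CD37-/- replicate 1 the lowest, as for *Ccnd2*. *Bhlha15*, a transcription factor gene of secretory cells, had an FPKM of 0.706 and 4.11 in CD37 fl/fl and of 0.109 and 0.829 in CD37-/- LSCs. None of the other members had this order.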

How the data were processed

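LSCs of 2 CD37 fl/fl and 2 CD37-/- samples gave stranded poly(A) libraries. The authors deposited FPKM values per gene and library, and per the labels their processing notes name fastp 0.20.1, STAR 2.7.7a, featureCounts 2.0.0, edgeR and the build mm39. Roles and counting settings are not given in the sources used here. Gene spans turned the values into whole reads, taking those of GENCODE M21 on GRCm38 (17045 of 17104 identifiers, 99.7%, were matched), so its names and positions were used, and 16843 genes (98.5%) were whole in all libraries. Implied totals ranged from 15327357 to 22627494 reads, and intervals cover counting error only.

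Values were transformed as log2(FPKM + 0.1), and limma 3.58.1 (R 4.3.3; lmFit, then trended eBayes) tested those whose mean FPKM reached 0.1, with Benjamini-Hochberg adjustment over all 11774 genes, a threshold of 0.05 and no block. Limma-voom used recovered reads where they averaged 10 or more. Shares used exact permutation tests in scipy 1.17.1. Code was tested on simulated data. The members and lists were chosen with earlier results of these data known. All 10 members, *Cd37*, list genes fixed by name and the 5 genes most like *Ccnd2* were named. Genes fixed by name but outside the table were not analysed here, and 1 other is left out of the text. Alternatives were other pseudocounts, minimums, scalings, lengths and variance estimates, a replicate block, each library left out, and limma-voom. Replicates of a group differed by far more than sampling noise (chi-square per degree of freedom 102 and 66.5).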

Additional observations from a re-analysis of the deposited data

How the results depend on the processing

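No alternative of the limma fit on FPKM gave a gene at an adjusted p under 0.05, the replicate block included (0 genes). Limma-voom gave 0 genes and, with the replicate block (an alternative chosen after seeing the data), 397 genes, among them *Ccnd2* (-2.25). Libraries of the same number are not stated to be paired, and their deviations had a correlation of -0.06 over 11774 genes. An unadjusted p under 0.05 held for 2606 genes, of which 1443 changed by 1 or more on the log2 scale. Of the unadjusted calls 74.7% were higher in CD37-/- LSCs, 47.5% after quantile normalization, 53.8% after division by the upper quartile and 93.4% after rescaling to equal sums. *Ccnd3*, *Cdk6*, *Ccne1*, *Ccne2*, *Cdk2* and *E2f1* kept their direction and no adjusted call in all alternatives run for them. *Cdk4* turned to 0.04 (quantile normalization) and 0.20 (equal sums), and ranged from -0.55 to 0.18 with a library left out. *E2f2* turned to -0.03 after quantile normalization and ranged from -0.39 to 0.74 with a library left out. *Rb1* had 1.31 with exon length and 1.50 in limma-voom with and without the block, against 0.37. The difference in the *E2f2* share ranged from -11.0 to 9.86 percentage points with a library left out. The causes were not tested. *Ccnd2* and *Ccne2* were not tested at a mean FPKM of at least 1. The planned edgeR and DESeq2 alternatives on recovered reads were not run, and limma-voom was the test used on those reads. Over all genes the replicates of a group differed by far more than sampling noise, while the intervals of the 14 and 20 reads of *Ccne2* in CD37 fl/fl LSCs overlap.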

Other observations

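The log2 fold change moved with exon length over all tested genes. In 5 classes of rising exon length, the medians were -0.02, 0.03, 0.22, 0.29 and 0.39 on log2(FPKM + 0.1). The difference between both CD37-/- libraries moved the same way, from -0.27 in the class of the shortest genes to 0.24 in that of the longest, and that between both CD37 fl/fl libraries stayed between 0.07 and 0.14. Of the 9 tested members, 8 are in the upper 3 classes and *Ccne1* is in the class below. The part of this trend in the values of the members was not tested.

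Of the genes that overlap members on the opposite strand, *Bysl* (beside *Ccnd3*) had an FPKM of 7.79 and 8.64 in CD37 fl/fl and of 7.97 and 7.11 in CD37-/- LSCs, so its groups overlapped where those of *Ccnd3* did not. *Pmel*, which shares 34 exon bases with *Cdk2*, had 52 and 50 against 51 and 71 reads, and 9330179D12Rik, which overlaps *Ccnd2*, had 6 and 21 against 2 and 3 reads.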
